A study of Mus musculus with 2 samples.

Results

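Aerocytes are the wide, thin capillary endothelial cells (ECs) that lie against the alveolar surface of the lung, where gas is exchanged, and general capillary (gCap) cells are the second capillary type that runs between them. Aerocytes carry carbonic anhydrase 4 and endothelin receptor B, depend on VEGF from the alveolar epithelium, and make the ligand apelin, whose receptor is on gCap cells. gCap cells divide and can give rise to aerocytes during repair. DNMT1 copies methyl marks at CG dinucleotides onto new DNA strands, so a cell that loses it while dividing loses methylation with each division.

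The members were chosen by the detection of marker genes in these same data. A cell was counted as an aerocyte when at least 3 of the 6 aerocyte markers *Car4*, *Ednrb*, *Fibin*, *Apln*, *Tbx2* and *Rgs6* were detected by at least 1 UMI (unique molecular identifier, 1 captured mRNA molecule) each, with fewer than 3 of the 6 gCap markers *Kit*, *Glp1r*, *Sema3c*, *Bmp6*, *Npr3* and *Aplnr*. The cells had first to show at least 500 genes, at most 10% mitochondrial UMIs, a UMI of *Cdh5* or *Pecam1*, and no UMI of *Ptprc*, *Epcam*, *Cspg4* or *Myh11*. By this rule 1165 of all 18823 cells were aerocytes, among 6999 ECs. The control library held 888 of them and the Dnmt1iECKO library 277.

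The series compared ECs sorted as live CD31+CD45- cells from YUMMER1.7 tumors, a mouse melanoma line, in control and Dnmt1iECKO mice, by 10x Genomics 3′ single-cell RNA-seq with 1 library per group. Each library pooled the tumors of 3 female mice of 8 to 10 weeks, so animals cannot be told apart. The labels give the control mice as C57BL/6 and the Dnmt1iECKO mice as Cdh5CreERT2;Dnmt1fl/fl;ZsGreenlsl/lsl, while the study's methods describe controls that carry the same tamoxifen-activated Cre, driven by the *Cdh5* (VE-cadherin) promoter, and ZsGreen reporter, with no floxed *Dnmt1* named. The labels also give subcutaneous shoulder tumors and the study gives lung tumors after tail-vein injection. The files held markers of the lung: alveolar type 1 markers had 100367 and 62100 UMIs in the whole control and Dnmt1iECKO libraries, alveolar type 2 markers 946613 and 410571, and skin epithelial markers 1867 and 1991.

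The libraries held 9301 and 9522 cells with 123830489 and 141433493 UMIs, and 29 cell barcodes occurred in both, 5 of them on control and 1 on Dnmt1iECKO aerocytes. ECs were 61.4% of the control and 25.6% of the Dnmt1iECKO cells that passed the quality limits, while lymphocytes, which the CD45- gate should remove, were 6.43% and 27.1%. Aerocytes had a median of 8871 UMIs and 3264 genes in the control library and 9110 UMIs and 3332 genes in the Dnmt1iECKO library, so their depth was close. Their UMIs summed to 8222927 and 2608061. Levels are given as CPM, the UMIs of a gene in every 1000000 UMIs of the aerocytes of a library, and differences as the log2 ratio of Dnmt1iECKO over control. Intervals are 95% intervals (exact Poisson for levels, exact conditional for ratios, Clopper-Pearson for shares, Katz for ratios of shares), and they cover counting error only. With 1 library per group no difference has a replicate check, and no test is given.

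The stretches before the start of 3 genes in the RefSeq table are shown here because their differences between the libraries were among the largest of those spread over many cells, and because CG dinucleotides, printed in capitals, are the substrate of DNMT1. DNA methylation itself was not measured. The sequences are those of RefSeq on GRCm38.p6, 5′ to 3′ on the strand of the gene, for *Gdpd3* at chr7:126766164-126766333 on the forward strand, *Alpl* at chr4:137796385-137796634 on the reverse strand and *Cyp1a1* at chr9:57697363-57697612 on the forward strand.
Gdpd3: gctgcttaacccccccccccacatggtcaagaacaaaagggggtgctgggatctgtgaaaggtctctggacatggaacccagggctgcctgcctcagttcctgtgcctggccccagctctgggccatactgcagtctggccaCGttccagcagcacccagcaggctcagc
Alpl: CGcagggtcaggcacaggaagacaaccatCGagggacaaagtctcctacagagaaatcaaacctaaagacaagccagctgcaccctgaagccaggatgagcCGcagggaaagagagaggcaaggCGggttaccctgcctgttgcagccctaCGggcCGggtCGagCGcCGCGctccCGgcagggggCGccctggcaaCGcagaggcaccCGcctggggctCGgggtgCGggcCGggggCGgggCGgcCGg
Cyp1a1: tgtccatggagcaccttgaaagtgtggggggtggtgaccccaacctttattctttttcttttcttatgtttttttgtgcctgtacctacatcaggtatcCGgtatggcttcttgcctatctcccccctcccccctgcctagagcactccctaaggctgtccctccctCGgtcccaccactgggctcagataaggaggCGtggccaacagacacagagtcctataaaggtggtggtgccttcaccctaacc
The stretch of *Gdpd3* ends where the gene begins in the annotation used for positions. That of *Cyp1a1* lies inside the gene of that annotation, which begins further upstream at 57687928, so the annotations differ in the start of *Cyp1a1*. The 170 bases printed for *Gdpd3* held 1 CG, and the 250 bases before the start of *Gdpd3* in the RefSeq table held 6. Of the promoters of genes tested in aerocytes, 11.3% held 6 or fewer. The 250 bases of *Alpl* held 20 CG and those of *Cyp1a1* held 3, and 61.8% and 5.53% of promoters held as few or fewer. The core of the binding motif of the aryl hydrocarbon receptor, GCGTG, searched on both strands, matched the *Cyp1a1* stretch 1 time, and 28.2% of 27025 promoters of the same length held it. Over 5259 promoters of genes tested the median was 18 CG, while 47 promoters of genes higher in Dnmt1iECKO aerocytes had a median of 12, 81 of genes lower had 11, and the 5 markers of the rule with a promoter in the table had 11. The medians of the higher and the lower genes were close to each other.

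The markers of the rule describe the cells and support nothing by themselves. *Car4*, the carbonic anhydrase of the capillary wall, was at 2809.8 CPM in control and 2529 CPM in Dnmt1iECKO aerocytes, compared with 103 and 102 CPM in gCap cells. *Ednrb*, a receptor for endothelin, was at 1899 and 1597 CPM, and *Rgs6*, a regulator of G protein signaling, at 1183 and 1099 CPM. *Apln*, the apelin ligand, had 504 and 416 CPM, and the transcription factor *Tbx2* had 424 and 368 CPM. *Fibin*, a secreted factor, showed the widest gap of the 6, with 977 CPM in control and 687 CPM in Dnmt1iECKO aerocytes. All 6 were lower in the Dnmt1iECKO library, by log2 ratios from −0.51 (*Fibin*) to −0.11 (*Rgs6*), none past 1.5-fold.

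The gCap markers stayed low by construction. *Sema3c*, a semaphorin, was the exception to near absence, with 338 and 308 CPM in aerocytes against 2045 and 1713 CPM in gCap cells. *Bmp6*, a BMP ligand, had 39.8 and 52.9 CPM, and *Npr3*, a clearance receptor for natriuretic peptides, had 12.5 and 1.15 CPM, on 103 and 3 UMIs. *Kit*, the stem cell factor receptor, had 4.62 and 6.13 CPM, and *Aplnr*, the apelin receptor, had 7 UMIs in control and 0 in Dnmt1iECKO aerocytes. Most members lay well inside the limit on aerocyte markers: 572 control and 166 Dnmt1iECKO aerocytes had all 6, with median depths of 10730 and 11031.5 UMIs. At the limit, 77 and 22 members had 3 markers, at 2399 and 3389 UMIs, and 135 and 58 cells with 2 markers lay just outside, at 3578 and 3828 UMIs. The limit on gCap markers cut closer: 143 and 59 members had 0 of them, and 248 and 76 had 2. It kept out 978 and 325 cells with enough aerocyte markers, against 888 and 277 members. Of those kept out, 145 and 41 had exactly 3 gCap markers and 314 and 107 had all 6. Members near the limit of 3 aerocyte markers were shallow, whereas those near the limit of gCap markers, with 2 of them, had medians of 10424.5 and 10377 UMIs.

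The label was checked against 18 other aerocyte genes that the rule did not use, of which 16 had a mean level of at least 20 CPM in aerocytes. All 16 were higher in aerocytes than in gCap cells of the control library, with log2 ratios from 0.62 (*Emcn*) to 5.83 (*Chst1*) and a median of 2.52, and 15 of 16 were higher in the Dnmt1iECKO library. The classes were cut from the same cells, so this is a description. *Emp2*, a membrane protein of alveolar cells, had 5534 CPM in aerocytes and 427 CPM in gCap cells of the control library. *Kitl*, the stem cell factor, had 3286 and 493 CPM there, and *Kdr*, the main VEGF receptor, had 2336 and 325 CPM. The plot of aerocyte gene levels shows both classes side by side.

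**Figure D1:**
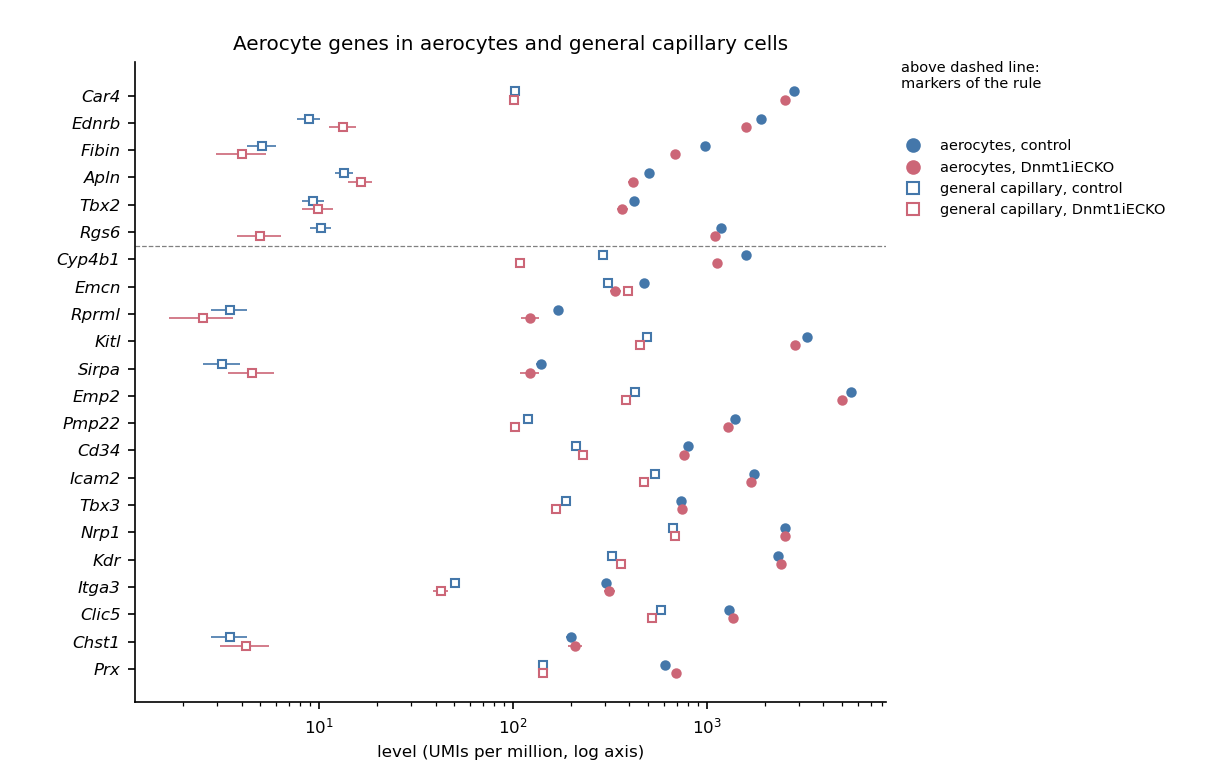
Levels of the 6 markers of the rule (above the dashed line) and of the 16 other aerocyte genes with at least 20 CPM (below it), in CPM on a log axis. Filled circles are aerocytes, open squares gCap cells, blue the control and red the Dnmt1iECKO library, and bars are 95% counting intervals. Aerocytes lie to the right of gCap cells for every gene except *Emcn* in the Dnmt1iECKO library, at 339 against 391 CPM.

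Between the libraries, of the 16 genes 0 lay past 1.5-fold in either direction, against 1.03% of 6603 genes tested that were at least 1.5-fold higher and 1.64% that were at least 1.5-fold lower in Dnmt1iECKO aerocytes, so the count is near that of all genes. Their median log2 ratio was −0.06, and that of all genes tested was 0.0015. *Kdr* was at 2336 CPM in control and 2422 CPM in Dnmt1iECKO aerocytes, a log2 ratio of 0.05. *Tbx3*, a partner of *Tbx2*, was at 742 and 745 CPM, and *Prx*, a scaffold protein of the cell membrane, at 609.5 and 692 CPM. These 3 genes of the aerocyte program were close to level.

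The lowest 3 of the list were *Cyp4b1*, *Emcn* and *Rprml*. *Cyp4b1*, a fatty acid hydroxylase abundant in lung, was at 1599 CPM in control and 1131 CPM in Dnmt1iECKO aerocytes, a log2 ratio of −0.50 (−0.56 to −0.44), and at 291 and 109 CPM in gCap cells, a ratio of −1.41. *Emcn*, endomucin, a sialomucin that covers capillary and venous ECs, was at 474 and 339 CPM in aerocytes, a ratio of −0.48 (−0.59 to −0.38), whereas in gCap cells it was at 309 and 391 CPM, a ratio of 0.34. *Rprml* was at 171 and 123 CPM, a ratio of −0.48. For *Emcn* the sign thus differed between the capillary types, and this difference was not tested.

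Aerocytes were a smaller share of ECs in the Dnmt1iECKO library. They were 888 of 4922 ECs (18.0%, 17.0 to 19.1) in the control and 277 of 2077 (13.3%, 11.9 to 14.9) in the Dnmt1iECKO library, a fold of 0.739 and a log2 ratio of −0.44 (−0.62 to −0.26). gCap cells were 48.4% and 49.5%. Cells with both marker sets, which were deep with medians of 16170.5 and 17916 UMIs, were 19.9% and 15.6%, and cells with neither set were 13.7% and 21.5%.

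Because marker detection depends on depth, the shares were also read after each EC had been thinned to 2000 UMIs. Aerocytes were then 1076 of 4564 ECs (23.6%) in the control and 331 of 1904 (17.4%) in the Dnmt1iECKO library, again with a log2 ratio of −0.44 (−0.60 to −0.28). Among aerocytes and gCap cells alone the shares were 27.1% and 21.2%, a ratio of −0.35. The ratio depended on the gate. Without the exclusion by single UMIs of other lineages it was −1.09, with 1044 of 6456 control and 360 of 4745 Dnmt1iECKO cells. The denominator of that setting also takes in cells with UMIs of *Ptprc*, *Epcam*, *Cspg4* or *Myh11*, so it is not a share of the same ECs. With members that lacked every gCap marker the ratio was −0.03. The share of ECs among all cells of a library and the share of lymphocytes moved with this result, and their part in it was not tested.

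**Figure D2:**
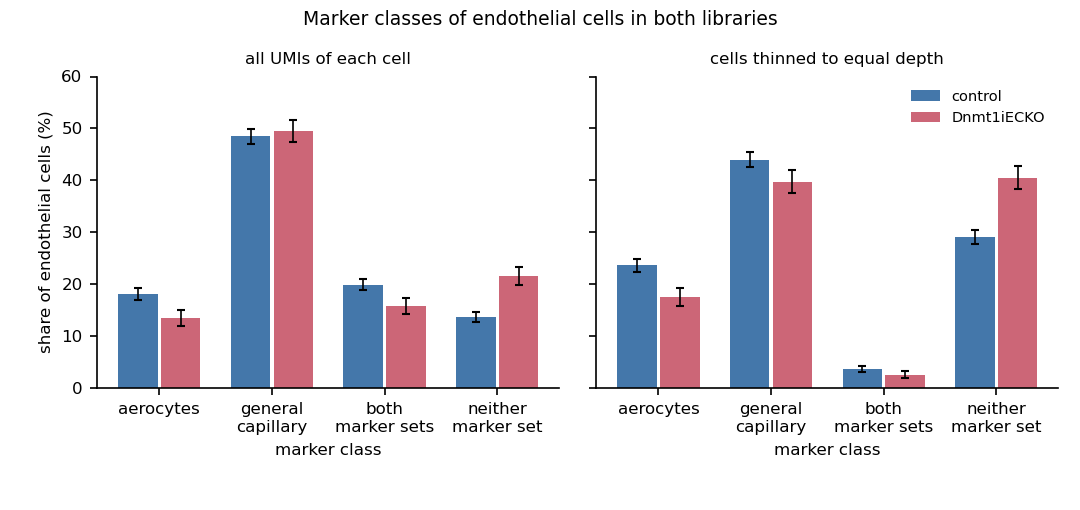
Shares of ECs (percent) in 4 marker classes for the control (blue) and Dnmt1iECKO (red) libraries, from all UMIs of each cell (left) and after thinning to 2000 UMIs per cell (right). Bars start at 0 and whiskers are exact 95% binomial intervals. The aerocyte share is lower in the Dnmt1iECKO library on both sides, 13.3% against 18.0% and 17.4% against 23.6%.

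The targeted gene was lower in Dnmt1iECKO aerocytes. *Dnmt1* (ENSMUSG00000004099, chromosome 9 of GRCm38 from 20907209 to 20959888, reverse strand) was at 45.4 CPM in control and 30.3 CPM in Dnmt1iECKO aerocytes, a log2 ratio of −0.58 (−0.95 to −0.23). gCap cells had 51.1 and 29.1 CPM, a ratio of −0.81. After thinning, 7.38% of control and 3.10% of Dnmt1iECKO aerocytes had a *Dnmt1* UMI, while lymphocytes, which the Cre driver does not target, had one in 11.7% and 11.3%. In CPM lymphocytes were not level, with 71.1 and 102 CPM of *Dnmt1*. The counts are taken over the whole gene, so they do not tell recombined from intact alleles. In the 143 and 59 members without any gCap marker the ratio was −0.06, and with no limit on gCap markers it was −0.99.

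Of 11 genes of the methylation machinery with at least 20 CPM, 0 lay past 1.5-fold, which at 1.03% and 1.64% of all genes says little of so short a list. Their median log2 ratio was −0.02. The de novo methyltransferase *Dnmt3a* was at 93.9 and 96.6 CPM, and the methyl-CG-binding protein gene *Mbd2* at 390 and 427 CPM. The demethylase genes *Tet1*, *Tet2* and *Tet3* had log2 ratios of 0.11, 0.11 and −0.02. Genes that methylation silences outside the germline remained near absence: 0 of 25 reached 20 CPM, and their summed level was 7.66 CPM in control and 6.90 CPM in Dnmt1iECKO aerocytes. Of 4 imprinted genes with enough UMIs, 0 lay past 1.5-fold, among them *Mest* at 152 and 138 CPM.

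Over all 6603 genes with a mean of at least 20 CPM, 68 were at least 1.5-fold higher and 108 at least 1.5-fold lower in Dnmt1iECKO aerocytes. In gCap cells the same genes gave 62 and 38. The excess of lower genes in aerocytes did not hold under every setting, with 86 higher and 41 lower when markers were read after thinning. The 12 highest and 12 lowest ratios were then taken among the 6561 genes that also had a UMI in at least 10% of aerocytes. Not all of them were carried by many cells, so the share of a gene's control UMIs that lay in the 9 control aerocytes with the most is given where it was large.

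**Figure D3:**
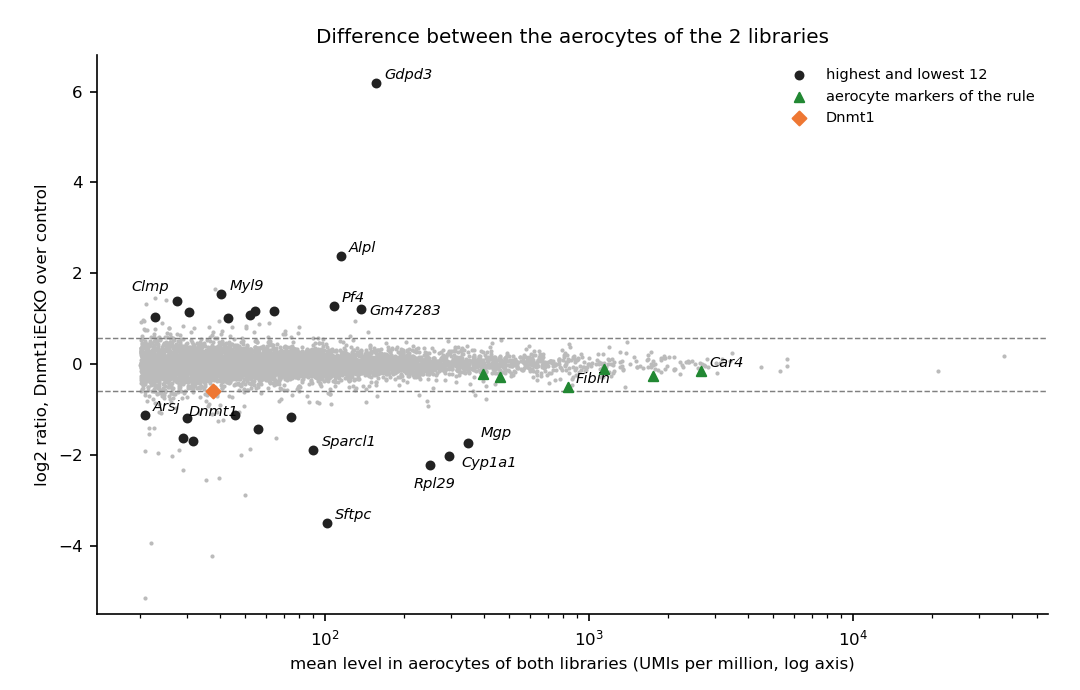
Log2 ratio of Dnmt1iECKO over control against the mean level in aerocytes of both libraries (CPM, log axis) for 6603 genes. Dashed lines mark 1.5-fold, black points the 12 highest and 12 lowest genes, green triangles the aerocyte markers of the rule and the orange diamond *Dnmt1*. *Gdpd3* stands at 6.18 and *Alpl* at 2.37, apart from the other genes on the higher side.

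*Gdpd3*, an enzyme that hydrolyses lysophospholipids, showed the highest ratio. Control aerocytes held 35 of its UMIs (4.26 CPM) and Dnmt1iECKO aerocytes 804 (308 CPM), a log2 ratio of 6.18 (5.69 to 6.71). In the control 3.72% of aerocytes had a UMI of it and in the Dnmt1iECKO library 80.9%, and after thinning 0.726% and 43.4% had one. gCap cells had 8.02 and 108 CPM, a ratio of 3.75, so that *Gdpd3* was lower in aerocytes than in gCap cells of the control and higher in those of the Dnmt1iECKO library. Lymphocytes also differed, at 0.988 and 142 CPM, with a UMI in 0.391% and 23.1% of thinned cells. Their level in the Dnmt1iECKO library was thus above that of gCap cells. Alveolar type 1 cells differed as well, with a UMI in 0.546% and 6.38% of thinned cells. Whether free RNA adds to these shares was not tested.

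*Gdpd3* (ENSMUSG00000030703) lies on chromosome 7 of GRCm38 from 126766334 to 126775649, forward strand, and Gm9967, annotated on the opposite strand, had 5 UMIs in each library. Of 20 genes in the files within 100 kb on either side, 7 had at least 20 CPM and 0 of them lay past 1.5-fold. *Mapk3*, the kinase ERK1, was at 227 and 269.9 CPM, a log2 ratio of 0.25, and *Ypel3* was at 124 and 94.3 CPM, a ratio of −0.39. The difference at this locus was thus seen at *Gdpd3* and not at its expressed neighbors. It held in members with 3 or 4, 5 and 6 aerocyte markers, with ratios of 6.05, 6.74 and 6.13.

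*Alpl*, tissue-nonspecific alkaline phosphatase, was the second highest, and its level was far higher in aerocytes than in gCap cells. It was at 37.2 CPM in control and 192 CPM in Dnmt1iECKO aerocytes, a log2 ratio of 2.37 (2.16 to 2.58), with a UMI in 6.65% and 31.8% of thinned cells. gCap cells had 0.704 and 2.85 CPM, and 0.196% and 0.641% of thinned lymphocytes had a UMI. In members with 3 or 4 aerocyte markers the ratio was 1.20 (−0.02 to 2.35) on 19 and 11 UMIs, and with 5 and 6 markers it was 2.80 and 2.34. *Alpl* lies on chromosome 4 from 137741733 to 137796384, reverse strand, with no overlapping gene.

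*Gdpd3* and *Alpl* were also read together within cells. Of 258 thinned Dnmt1iECKO aerocytes, 112 had a *Gdpd3* UMI, and *Alpl* was found in 23.2% of these (15.8 to 32.1) and in 38.4% (30.4 to 46.8) of the other 146. *Dnmt1* was found in 7 of the 112 and in 1 of the 146. These shares describe cells of 1 library.

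The other high genes were smaller in size. *Clmp*, an adhesion molecule of tight junctions, was at 15.3 and 39.9 CPM, a log2 ratio of 1.38, and *Xxylt1*, a xylosyltransferase that extends sugars on Notch, at 18.97 and 42.2 CPM, a ratio of 1.15. *Gm47283*, a predicted gene annotated on chromosome Y, was at 82.7 and 192 CPM, a ratio of 1.22, and at 1.19 in gCap cells, although both libraries are labelled female. The 4 Y-linked genes checked gave 4 and 2 UMIs in aerocytes, and 842 and 1308 UMIs in the whole control and Dnmt1iECKO libraries. Whether reads of related copies are counted at *Gm47283* was not tested.

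Several high genes are those of other cells. *Pf4* and *Ppbp*, chemokines stored in platelets, were at 62.8 and 153 CPM and at 39.6 and 89.0 CPM, with log2 ratios of 1.29 and 1.17. *Plek* (pleckstrin) and *Myl9* (a myosin light chain), both abundant in platelets, had ratios of 1.07 and 1.55. All 5 platelet markers tested were past 1.5-fold higher, against 1.03% of all genes tested, with a median ratio of 1.29. The summed level of the 7 in the list was 230 and 530 CPM. After thinning, 4.96% of control and 6.98% of Dnmt1iECKO aerocytes had at least 3 platelet markers. The 3 Dnmt1iECKO aerocytes with the most held 52.9% of that library's aerocyte UMIs of *Pf4*, 57.8% of *Ppbp*, 52.2% of *Myl9* and 43.5% of *Plek*. Without the 1% of members with the most UMIs of each gene the 4 ratios were 0.71, 0.76, 1.13 and 0.72. Without cells that carried 2 or more markers of another lineage the ratio of *Myl9* was 0.17, and those of *Pf4* and *Plek* were −0.47 and −0.58. Platelet markers, *Pf4* among them, were part of that filter, so these changes were partly set by it.

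*Igkc*, the constant chain of kappa immunoglobulin, was at 33.3 and 75.5 CPM in aerocytes, a log2 ratio of 1.18, and at a ratio of 1.32 in gCap cells. *Scgb1a1*, the secretoglobin of club cells, was at 14.8 and 30.7 CPM. *Igkc* was found in 7.26% and 14.7% of thinned aerocytes and in 39.9% and 40.1% of thinned lymphocytes. *Lyz2*, a myeloid lysozyme, was the only 1 of 12 immune markers with enough UMIs, at 39.3 and 72.9 CPM, and 0 thinned aerocytes had 3 immune markers in either library. The shares of lymphocytes in the libraries moved with these values, and their part in them was not tested.

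*Cyp1a1*, a monooxygenase induced through the aryl hydrocarbon receptor, was the clearest of the low genes. Control aerocytes held 3911 of its UMIs (476 CPM) and Dnmt1iECKO aerocytes 304 (117 CPM), a log2 ratio of −2.03 (−2.20 to −1.86). After thinning, 42.0% and 13.6% of aerocytes, 23.2% and 3.94% of gCap cells and 0% of lymphocytes of either library had a UMI. gCap cells were at 157 and 22.7 CPM, a ratio of −2.79. *Cyp1a1* (chromosome 9, 57687928 to 57703824, forward strand) was higher in aerocytes than in gCap cells in both libraries.

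The other genes of this pathway were closer between the libraries. Of 6 tested, *Cyp1a1* was past 1.5-fold lower and 0 were past 1.5-fold higher, against 1.64% and 1.03% of all genes tested. The receptor gene *Ahr* was at 402 and 392 CPM, its partner *Arnt* at 77.3 and 77.5 CPM, and the target *Tiparp* at 57.5 and 48.3 CPM. In the control library, *Cyp1a1* was found in 76.4% (63.0 to 86.8) of the 55 thinned aerocytes with an *Alpl* UMI and in 39.5% (36.0 to 43.1) of the other 772, while in the Dnmt1iECKO library the shares were 14.6% and 13.1%. The shares lay apart in the control and close together in the Dnmt1iECKO library, as a description of the cells of 1 library each.

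*Rpl29*, a ribosomal protein gene with processed copies in the genome, was at 412 and 89.0 CPM, a log2 ratio of −2.21. It differed as much in gCap cells (−2.26) and was found in 86.5% and 34.6% of thinned lymphocytes, so the gap was shared by all classes read. *Gm9917*, a predicted gene on the strand opposite to *Rassf1*, *Tusc2* and *Hyal2*, was at 103 and 46.0 CPM, a ratio of −1.16. *Arsj*, an arylsulfatase that gCap cells nearly lack, was at 28.5 and 13.0 CPM, a ratio of −1.13.

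**Figure D4:**
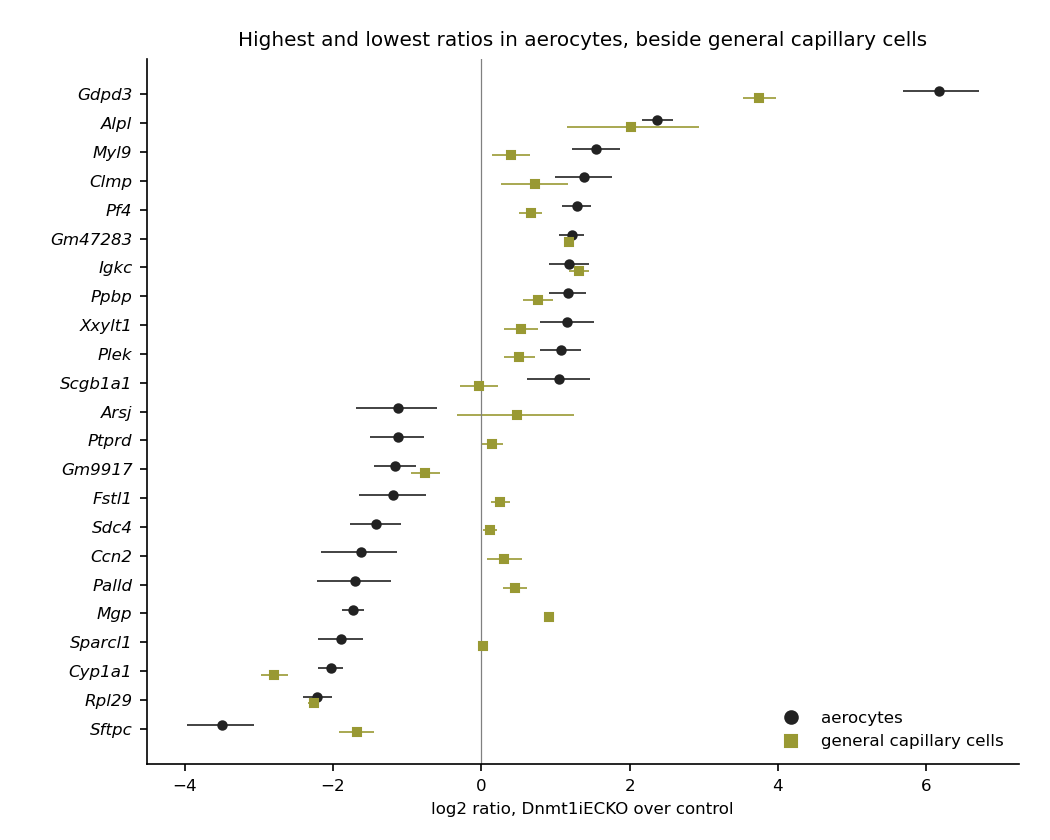
Log2 ratio of Dnmt1iECKO over control for 11 of the 12 highest and the 12 lowest genes of aerocytes (black circles), beside the ratio of the same genes in gCap cells (olive squares), with 95% counting intervals. *Gdpd3*, *Alpl*, *Gm47283*, *Igkc*, *Rpl29* and *Cyp1a1* lie well to the same side of 0 in both types, whereas *Mgp* is at −1.73 in aerocytes and 0.92 in gCap cells.

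Most of the remaining low genes rested on few control cells. *Sftpc*, the surfactant protein of alveolar type 2 cells, was at 187 CPM in control and 16.5 CPM in Dnmt1iECKO aerocytes, a log2 ratio of −3.50, but 9 control cells held 75.2% of its control UMIs and 1 cell held 1047. It was found in 10.9% and 3.88% of thinned aerocytes and in nearly the same shares of lymphocytes, 10.4% and 2.47%, which should lack it. In CPM lymphocytes went the other way, with 55.8 CPM of *Sftpc* in the control and 430 CPM in the Dnmt1iECKO library. *Mgp*, matrix Gla protein, was at 534 and 161 CPM, with 90.5% of the control UMIs in 9 cells, and 8.95% and 8.14% of thinned aerocytes had a UMI. Its log2 ratio of −1.73 turned to 0.54 without cells that carried 2 or more markers of another lineage. *Sparcl1* (79.2%), *Ptprd* (76.8%), *Palld* (53.1%) and *Sdc4* (50.5%) were concentrated in the same manner. Without the 1% of members with the most UMIs of each gene the ratio of *Sparcl1* was −0.11 and that of *Ptprd* 0.08, while *Palld* at −1.17, *Sftpc* at −1.66 and *Sdc4* at −0.66 were still past 1.5-fold lower.

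Fibroblast markers behaved like these genes. Of 4 tested, 3 were past 1.5-fold lower, against 1.64% of all genes tested, with a median of −1.59. *Col1a2* and *Col3a1*, chains of fibrillar collagen, were at 48.3 and 9.59 CPM and at 87.7 and 11.9 CPM. In *Col1a2*, 9 control cells held 96.7% of the control UMIs, and in *Col3a1* 96.1%. Without the 1% of members with the most UMIs of each gene the ratios were 1.26 and 1.07 and the median of the list was 0.73, so the direction turned. At least 3 fibroblast markers were found in 1.33% and 1.94% of thinned aerocytes.

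**Figure D5:**
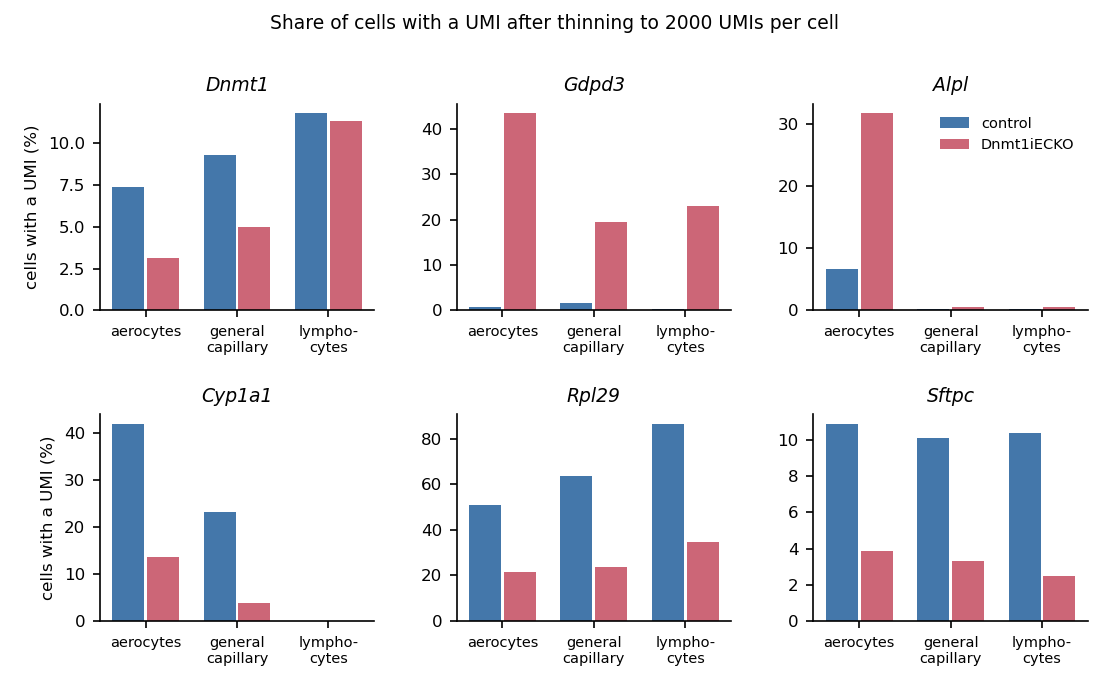
Percent of cells with a UMI after thinning every cell to 2000 UMIs, for 6 genes in aerocytes, gCap cells and lymphocytes of the control (blue) and Dnmt1iECKO (red) libraries. Among these classes *Alpl* was found mainly in aerocytes (6.65% and 31.8%) and *Cyp1a1* in ECs, while *Rpl29*, *Sftpc* and *Gdpd3* differ between libraries in lymphocytes as well.

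Signaling and junction genes of the capillary wall came next. Of 5 genes of the VEGF axis, 8 of Notch, 10 of the response to shear and 11 of endothelial junctions, 0 lay past 1.5-fold, and at the shares of all genes past it (1.03% and 1.64%) a list of this size would hold few or none. *Nrp1*, a VEGF co-receptor, was at 2524 and 2537 CPM, and *Flt1*, the decoy receptor, at 974 and 821 CPM. All 11 junction genes had log2 ratios above 0, with a median of 0.11 that turned to −0.15 without the exclusion by single UMIs, among them *Cldn5*, a claudin, at 2355 and 2442 CPM and *Cdh5* at 1850.4 and 2032 CPM. *Cdh5* and *Pecam1* had been used by the gate.

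Of 15 genes of the BMP and TGF-beta pathway, 1 was past 1.5-fold higher, 0 were past 1.5-fold lower and the median was 0.10. Among all genes tested 1.03% were higher and 1.64% lower by this limit. *Smad5*, a signal transducer of BMP receptors, was at 34.3 and 52.9 CPM, and the inhibitor *Smad6* at 327 and 406 CPM. The receptors *Acvrl1* and *Bmpr2* were at 1208.3 and 1208.2 CPM and at 1781 and 1968 CPM. The receptors were thus nearly level, with the gap at *Smad5* resting on 282 and 138 UMIs.

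Transcription factors of ECs gave 1 of 21 past 1.5-fold, against 1.03% of all genes tested that were higher and 1.64% that were lower. *Epas1* (HIF-2alpha), a hypoxia-inducible factor abundant in lung capillaries, was at 1162 CPM in control and 1629.9 CPM in Dnmt1iECKO aerocytes, a log2 ratio of 0.49 (0.44 to 0.54), and at a ratio of −0.07 in gCap cells. Its ratio lay between 0.22 and 0.54 under 16 other settings. *Ets1* was at 367 and 480 CPM, and *Sox17*, a factor of arterial ECs, at 23.3 and 40.6 CPM, a ratio of 0.80. Of 8 genes of hypoxia and glycolysis 0 lay past 1.5-fold, with a median of −0.07.

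Genes of other EC types were also read. Of 13 other gCap genes tested, 2 were past 1.5-fold higher, 1 was lower and the median was 0.11. Among all genes tested 1.03% were higher and 1.64% lower by this limit. *Gpihbp1*, which binds lipoprotein lipase on capillaries, was at 60.6 and 97.8 CPM, against 654 and 590 CPM in gCap cells, and *Vwf* was at 20.8 and 31.4 CPM. *Plvap*, which forms the diaphragms of capillary pores, was at 26.9 and 15.3 CPM, and its direction, like that of *Gpihbp1*, turned when 2 aerocyte markers were enough for a member. *Lrg1*, a gene of venous ECs, was at 42.7 and 80.5 CPM, a log2 ratio of 0.92. Summed over the 16 genes of the list, aerocytes had 4736 and 5335 CPM and gCap cells 12858 and 11441 CPM.

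The study asked about immune genes of tumor ECs. Of 23 type I interferon genes tested, 1 was past 1.5-fold higher and 1 lower, with a median log2 ratio of −0.07, and of 30 interferon gamma genes 1 was higher and 0 were lower, with a median of 0.05. These counts lie near the shares of all genes, 1.03% higher and 1.64% lower. *Ifit2* was at 31.3 and 49.5 CPM and *Ifit1* at 42.9 and 27.2 CPM, ratios of 0.66 and −0.66. *Cxcl9*, a chemokine that attracts T cells, was at 18.8 and 32.6 CPM, a ratio of 0.79, while gCap cells had 51.4 and 167 CPM, a ratio of 1.70. Of its control UMIs in aerocytes, 81.3% lay in 9 cells, and without the 1% of members with the most UMIs its ratio was 2.04. Its direction turned when markers were read after thinning. *Cxcl10* was at 86.0 and 117 CPM, a ratio of 0.44 that turned to −1.35 without the exclusion by single UMIs and to −0.18 with no limit on gCap markers.

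Interferon states were counted per cell, and the shares depended on depth. At full depth 22.3% of control and 19.5% of Dnmt1iECKO aerocytes had at least 3 of 6 type I interferon markers, against 40.1% and 34.8% of gCap cells. After thinning, 3.26% of control and 2.71% of Dnmt1iECKO aerocytes had as many, against 10.6% and 7.27% of gCap cells. For 6 interferon gamma markers, 16 of 888 control (1.80%) and 6 of 277 Dnmt1iECKO aerocytes (2.17%) had at least 3 at full depth. The intervals overlapped, at 1.03 to 2.91 and 0.799 to 4.65. In gCap cells the full-depth counts were 263 of 2384 and 116 of 1028. After thinning they were 4 of 827 and 0 of 258 aerocytes, the latter with an upper limit of 1.42%, against 1.72% and 3.13% of gCap cells. The direction in aerocytes thus differed between the depths, on few cells. Proliferation markers were found together in 2 of 888 control and 4 of 277 Dnmt1iECKO aerocytes at full depth, and in 1 of each library after thinning. Tip cell markers were found together in 4 of 888 and 0 of 277 at full depth, and in 0 of 827 and 0 of 258 after thinning.

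Genes of antigen presentation by MHC class I were abundant. Of 19 tested, 0 lay past 1.5-fold, 13 had ratios above 0 and the median was 0.08. Of all genes tested 1.03% were past 1.5-fold higher and 1.64% lower, so the count is near that of all genes. *B2m*, the invariant chain, was at 5436 and 5856 CPM, and the peptide transporter gene *Tap1* at 85.4 and 108 CPM, a log2 ratio of 0.34. H2-Q4, whose reads can be split with its close paralogs, was at 208 and 267 CPM. MHC class II was low in aerocytes, with *Cd74* at 132 and 110 CPM against 2326 and 2471 CPM in gCap cells.

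Adhesion molecules and ligands for T cells were read beside the shares of all genes past 1.5-fold, 1.03% higher and 1.64% lower. Of 9 adhesion genes, 1 was past 1.5-fold lower. This was *Vcam1*, a receptor for leukocyte integrins, at 51.9 and 28.0 CPM, with 88.8% of its control UMIs in 9 cells and a UMI in 1.69% and 1.94% of thinned aerocytes. Its log2 ratio was −0.89, and 0.13 without the 1% of members with the most UMIs. *Icam1* was at 689 and 659 CPM. Of 6 checkpoint ligands and costimulators, 0 lay past 1.5-fold, with *Tnfsf10* (TRAIL) at 511 and 678 CPM, *Vsir* (VISTA) at 80.0 and 110 CPM and *Cd274* (PD-L1) at 121 and 137 CPM. *Cd47*, the signal that holds back phagocytes and a gene that aerocytes share widely, was at 1218 and 1002 CPM, a log2 ratio of −0.28.

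Of 11 targets of p53, 1 was past 1.5-fold lower and 0 were higher, against 1.64% and 1.03% of all genes tested. *Gdf15*, a stress-induced cytokine, was at 67.6 and 11.9 CPM, a log2 ratio of −2.51, with 38.1% of its control UMIs in 9 cells. *Phlda3*, an inhibitor of AKT, was at 436 and 291 CPM, a ratio of −0.58, and *Cdkn1a*, the cell cycle inhibitor p21, at 961 and 764 CPM. The median over the 11 was −0.27, and 2 of them had ratios above 0. In gCap cells the median was −0.13.

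Of 16 genes of the TNF-alpha and NF-kB response, 3 were past 1.5-fold lower and 0 higher, against 1.64% and 1.03% of all genes, with a median of −0.12 in aerocytes and 0.20 in gCap cells. The median in aerocytes turned to 0.09 with UMIs of both *Cdh5* and *Pecam1* required and to 0.15 without the exclusion by single UMIs. The 3 were *Vcam1*, *Cxcl1* and *Nfkb1*. *Nfkb1*, a subunit of NF-kB, was at 322 and 169 CPM, but 1 control cell held 533 of its UMIs, and without the 1% of members with the most the log2 ratio was −0.28. *Cxcl1*, a neutrophil chemokine, was at 71.1 and 3.83 CPM, with 93.3% of the control UMIs in 9 cells. Of 15 genes that respond to tissue dissociation, 1 lay past 1.5-fold and the median was 0.11.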

How the data were processed

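The authors sequenced GEM-X 3′ libraries (the design text names version 4 and version 3 chemistry) on a NextSeq 2000 and, per the submitters' processing notes, made the tables with Cell Ranger 9.0.1 on mm10. The deposited files hold filtered UMI counts of 32285 genes per cell, unnormalized, with 1 matrix per library. The study's methods describe doublet removal with DoubletFinder in its own analysis, and whether the deposited cells had passed it was not stated, so all deposited cells were used here.

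Counts were read with Python 3.11.15, numpy 2.4.6, pandas 2.3.3, scipy 1.17.1 and scanpy 1.11.5, and figures drawn with matplotlib 3.10.9. Members were chosen by the marker rule given above, UMIs were summed per class and library and divided by their total, and genes with a mean of at least 20 CPM in aerocytes of both libraries were compared, with 1.5-fold as the limit of size. For shares of cells with a UMI, each cell was thinned to 2000 UMIs, leaving out 61 control and 19 Dnmt1iECKO aerocytes that were shallower. A cell carried a state or another lineage with at least 3 markers of it. Lymphocytes and alveolar type 1 cells were called by their own markers among all quality cells. Positions came from the mm10 annotation, which held 32235 of the gene identifiers, and promoters from RefSeq. The scripts were tested on simulated counts. The members and all 50 gene lists were chosen with earlier results of these data known.

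The genes named were the 12 markers of the rule, *Dnmt1*, up to 4 genes per list with at least 20 CPM and the largest differences, any list gene whose role is explained, and the 12 highest and 12 lowest ratios among genes with at least 20 CPM and a UMI in at least 10% of aerocytes. Of these, 1 gene is not reported here. Neighbors of *Gdpd3*, cells of 1 library that held most of a gene, and pairs of genes in cells were chosen after values were seen. Alternatives covered the limits on genes and mitochondrial UMIs, the endothelial gate and its exclusions, the number of markers, thinned markers, Scrublet doublet removal, the denominator of the share, median-of-ratios size factors, the mean of CPM over cells, the minimum level, and leaving out the 1% of members with the most UMIs of a gene. Leaving out members with 2 or more markers of another lineage was added after seeing the data. It removes cells by the lineage lists themselves, so the ratios of genes in those lists are partly set by it. With 1 library per group no replicate error exists.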

Additional observations from a re-analysis of the deposited data

Results flagged for a closer look

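For 5 genes the log2 ratio of Dnmt1iECKO over control had opposite signs in aerocytes and gCap cells, past 1.5-fold on both sides, and the difference between the types was not tested. *Mgp* was at −1.73 in aerocytes and 0.92 in gCap cells, and *Vcam1* at −0.89 and 1.21. The chemokine gene *Cxcl1* was at −4.21 and 0.93. The collagen genes *Col1a2* and *Col3a1* were at −2.33 and −2.88 in aerocytes and at 0.84 and 1.12 in gCap cells. In aerocytes, 9 control cells held 88.8% of the control UMIs of *Vcam1*, 90.5% of *Mgp*, 93.3% of *Cxcl1*, 96.1% of *Col3a1* and 96.7% of *Col1a2*. Without the 1% of members with the most UMIs of each gene the ratios in aerocytes were 1.26 for *Col1a2*, 1.07 for *Col3a1* and 0.13 for *Vcam1*, on the side of gCap cells, and −0.42 for *Mgp* and −0.84 for *Cxcl1*.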

How the results depend on the processing

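No paired analysis was possible because each group was 1 library, and no library could be left out. Of 1207 values of single genes under the alternatives, 89 changed sign, 76 of them where the reported value was past 1.5-fold and 13 where it was smaller. Of 596 medians of gene lists 81 changed sign, 6 of them past 1.5-fold as reported and 75 smaller. The log2 ratios of *Gdpd3* (5.34 to 6.65), *Alpl* (2.09 to 2.53), *Cyp1a1* (−2.65 to −1.91), *Rpl29* (−2.51 to −1.38) and *Epas1* (0.22 to 0.54) kept their direction under the 16 alternatives. As reported, the log2 ratios of *Sparcl1*, *Palld*, *Sdc4*, *Fstl1* and *Ptprd* were −1.89, −1.70, −1.42, −1.18 and −1.13. Those of *Gsn*, *Gp9*, *Itga2b* and *Nrgn* were −0.84, 1.66, 1.46 and 0.95. The cause of the changes below was not tested. Some settings changed the number of cells or genes that entered.

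Genes past 1.5-fold were 68 higher and 108 lower as reported, 86 and 41 with thinned markers, 78 and 65 with at least 4 aerocyte markers, 95 and 82 with the exclusion from 2 UMIs on, 90 and 87 without the 1% of members with the most UMIs of a gene, and 83 and 81 without members with 2 or more markers of another lineage, so the excess on the lower side did not hold.

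Without the exclusion by single UMIs of other lineages the log2 ratio of the aerocyte share was −1.09, with a denominator of 6456 and 4745 cells. That of *Dnmt1* was −0.14, and 372 genes were past 1.5-fold higher. The ratios were then 0.31 for *Sparcl1*, 0.61 for *Mgp*, 0.24 for *Sdc4*, 0.84 for *Fstl1*, 0.75 for *Ptprd*, 0.58 for *Vcam1*, −0.78 for *Ifit2*, 1.55 for *Col1a2*, 2.06 for *Col3a1*, 0.40 for *Gsn*, −0.18 for *Lyz2* and 1.25 for the fibroblast median. With the exclusion from 2 UMIs on they were 0.86 for *Fstl1*, 0.52 for *Vcam1*, 2.05 for *Col1a2*, 2.34 for *Col3a1* and 0.97 for the fibroblast median. With UMIs of both *Cdh5* and *Pecam1* required, *Vcam1* was at 0.63 and *Gsn* at 0.18.

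With 2 aerocyte markers enough, 215 genes were higher, and the ratios were 0.060 for *Sparcl1*, 0.67 for *Mgp*, 0.61 for *Sdc4*, 0.34 for *Vcam1*, −0.10 for *Gpihbp1*, 0.61 for *Plvap*, 0.90 for *Gsn* and 0.13 for the fibroblast median. With at least 4, 65 genes were lower, and the ratios were 0.34 for *Mgp*, 0.72 for *Ptprd*, 1.41 for *Vcam1*, 1.34 for *Col1a2*, 0.65 for *Col3a1* and 0.95 for *Gsn*. With no limit on gCap markers *Dnmt1* was at −0.99, 109 genes were higher and 36 lower, and the ratios were 0.45 for *Sparcl1*, 1.27 for *Mgp*, 0.44 for *Palld*, 0.38 for *Ptprd*, 0.36 for *Col1a2*, 0.41 for *Col3a1*, 1.19 for *Gsn* and 0.95 for the fibroblast median. With no gCap marker detected, which left 143 and 59 cells, the share was at −0.032 and *Dnmt1* at −0.058, 637 genes were higher and 667 lower, and the ratios were −1.21 for *Myl9*, −1.30 for *Pf4*, −0.040 for *Igkc*, −2.46 for *Ppbp*, −1.05 for *Plek*, −0.91 for *Gpihbp1*, −0.53 for *Ifit2*, −1.45 for *Gp9*, −1.91 for *Itga2b*, −1.80 for *Nrgn* and −1.62 for the platelet median.

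With markers read after thinning 41 genes were lower, and the ratios were 0.51 for *Sparcl1*, 1.91 for *Mgp*, 0.20 for *Palld*, 1.20 for *Ptprd*, 0.85 for *Vcam1*, 1.68 for *Cxcl1*, −0.075 for *Cxcl9*, −0.11 for *Vwf*, 1.99 for *Col1a2*, 1.69 for *Col3a1* and 2.52 for *Gsn*. With the mean of CPM over cells 106 genes were higher, *Vcam1* was at 0.28 and *Gsn* at 0.19. With a minimum of 5 CPM 308 genes were higher and 516 lower, and with 50 CPM 23 and 28. Without the 1% of members with the most UMIs of a gene the ratios were 0.085 for *Ptprd*, 0.13 for *Vcam1*, 1.26 for *Col1a2*, 1.07 for *Col3a1*, 0.39 for *Gsn* and 0.73 for the fibroblast median. Without members with 2 or more markers of another lineage, which was chosen after seeing the data and left 635 and 196 aerocytes with a share ratio of −0.40, the ratios were 0.54 for *Mgp*, 0.54 for *Ptprd*, −0.47 for *Pf4*, −0.58 for *Plek*, 0.97 for *Vcam1*, −0.18 for *Vwf*, 1.59 for *Col1a2*, 1.76 for *Col3a1*, −0.73 for *Itga2b* and −0.37 for *Nrgn*.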

Other observations

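The lists of gene groups not described above were counted in the same way in aerocytes, beside 1.03% of all genes tested higher and 1.64% lower. Of 5 genes of gas exchange and ion transport, 0 lay past 1.5-fold, with a median log2 ratio of 0.22, among them *Aqp1*, the water channel of capillaries, at 0.22. Of 7 genes of vascular tone and hemostasis, 1 was past 1.5-fold higher. *Ece1*, which makes active endothelin, was not past it, at 364 and 499 CPM, a log2 ratio of 0.46. Of 8 tip cell genes, 0 were past 1.5-fold higher and 1 lower, with a median of 0.08, and of 11 basement membrane genes, 1 was higher and 2 lower, with a median of 0.06. Of 6 Hippo pathway genes 1 was lower, namely *Ccn2*, a secreted target of YAP, at 43.8 and 14.2 CPM.

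Of markers of other lineages, 2 alveolar type 2 genes were tested and both were lower, with a median of −4.32, against 1.64% of all genes tested. However, 9 control cells held 75.2% of the control UMIs of *Sftpc* and 85.0% of those of *Sftpa1*. Without members with 2 or more markers of another lineage, a filter that counts alveolar type 2 markers themselves, the ratios were −1.58 and −1.53. By comparison, 3 alveolar type 1 genes gave a median of −0.17 and 0 past 1.5-fold. At least 3 alveolar type 1 markers were found in 2.66% and 2.71% of thinned aerocytes and at least 3 alveolar type 2 markers in 0.242% and 0%. *Hopx*, an alveolar type 1 gene that aerocytes also held, was at 864 and 1003 CPM.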
